A study of Oryctolagus cuniculus with 4 samples.

Results

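The comparison was made inside a single tissue section, between regions of muscle that carried much of the transcript of MYH4, the myosin heavy chain of fast type IIb fibers, and regions that carried little of it. The section came from a rabbit supraspinatus muscle 2 weeks after its tendon was cut, and was read with the Visium 3′ assay, which counts captured mRNA molecules (unique molecular identifiers, UMIs) gene by gene at barcoded spots of a slide. Among the 801 spots of this section with at least 1000 UMIs, the 200 with the highest share of MYH4 among the UMIs of MYH1, MYH4 and MYH7 were called MYH4-rich and the 200 with the lowest share MYH4-poor. The groups were thus chosen by measured values of these 3 genes. The 400 spots belonged to 854 spots in the section and 6970 in the series.

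The series held 4 sections, all from the posterior distal belly of the supraspinatus of skeletally mature female New Zealand White rabbits. The 2-week section and the 16-week section had been taken after surgical tenotomy, the cutting of the tendon that serves as a model of rotator cuff tear, and the 2 remaining sections were healthy muscle. The 2-week, the 16-week and 1 healthy muscle had been kept frozen for 6 years, and the other healthy muscle was freshly frozen. The 2-week section was 1 section of 1 animal, so its spots are repeated readings of 1 muscle and not replicates. No p-value was therefore computed, and every interval given is a 95% interval that covers counting error alone.

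Skeletal muscle fibers are classed by the myosin heavy chain they make. MYH7 is the chain of slow type I fibers, which rely on oxidative metabolism and share many proteins with heart muscle, and MYH1 and MYH4 are the chains of fast type IIx and IIb fibers, which contract faster and draw more on glycolysis. A fiber can also hold more than 1 chain. The thin filament, the light chains, the calcium pump of the sarcoplasmic reticulum and the enzymes of energy supply come in forms that go with fast or slow fibers. A spot can cover several fibers or parts of them together with the tissue between, so a spot with both MYH1 and MYH4 may hold hybrid fibers or a mixture of fibers, and fewer fibers of a type cannot be told apart from less RNA per fiber.

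The share of MYH4 that chose the spots ran from 8.37% to 64.5% in the MYH4-rich group, with a median of 12.9%. In the MYH4-poor group the median was 0.843% and 47 spots had no MYH4 UMI. The first spots left out lay at 8.33% below the MYH4-rich limit and at 2.06% above the MYH4-poor limit of 2.05%, so neither limit fell in a gap. Summed over the spots, MYH1 was the leading chain in both groups. Per 10000 UMIs of all genes, the MYH4-rich spots held 516 UMIs of MYH1, 110 of MYH4 and 52.4 of MYH7, and the MYH4-poor spots 357, 4.55 and 122. These 3 genes chose the groups and are not results.

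The MYH4-poor group was of mixed make-up. In 155 of its 200 spots MYH1 had more UMIs than MYH7, in 43 spots (21.5%, exact binomial interval 16.0 to 27.8%) MYH7 had more, and in 2 the counts were equal, while MYH1 exceeded MYH7 in all 200 MYH4-rich spots. MYH4 itself had the most UMIs of the 3 genes in 4 MYH4-rich spots. MYH7 had more UMIs than MYH1 in only 48 of all 801 spots, and 43 of them were in the MYH4-poor group. MYH7 is part of the sum that the share is taken of, so the rule itself draws spots with much MYH7 into this group. The contrast of MYH4-rich with MYH4-poor was therefore in part a contrast of low with high MYH7, and it is given below also against the spots led by MYH1, against those led by MYH7, and within spots that are low in MYH7.

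**Figure D1:**
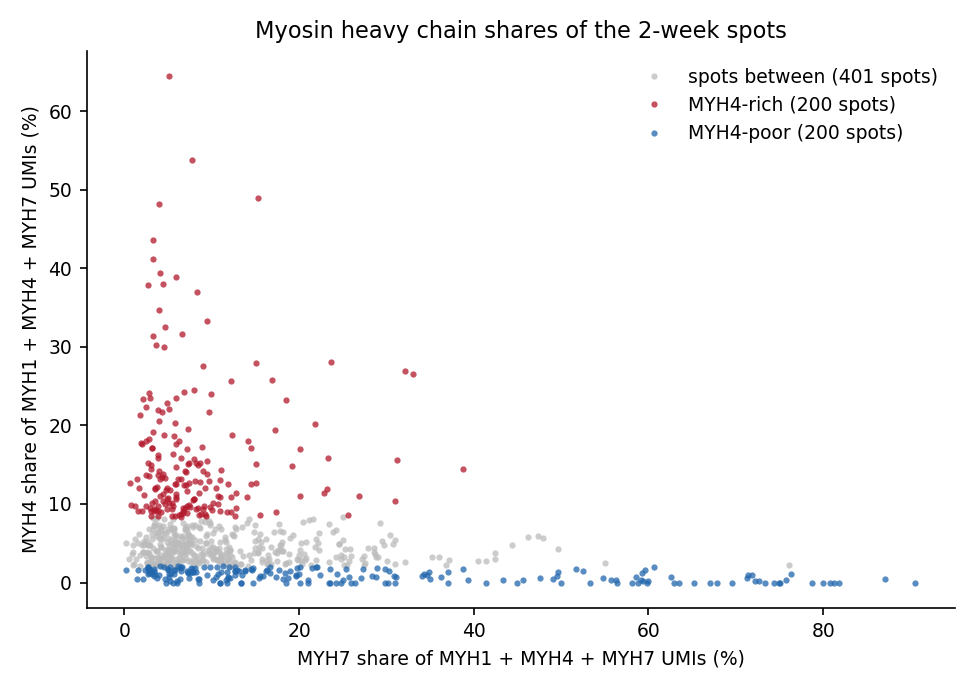
Each point is 1 of the 801 spots, with the share of MYH7 (x axis, percent) and of MYH4 (y axis, percent) among the UMIs of MYH1, MYH4 and MYH7. The MYH4-poor spots lie along the bottom and reach from low to high MYH7, whereas the MYH4-rich spots, with up to 64.5% MYH4, hold more MYH1 than MYH7 in all 200 cases.

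MYH4-rich spots had somewhat fewer UMIs than MYH4-poor spots. Their median was 4544.5 UMIs and 823 genes per spot, against 5034.5 UMIs and 847 genes. The order turned when UMIs from the mitochondrial genome were left out (3141.5 against 3053 UMIs) and when every spot was thinned to 1000 UMIs (322 against 314.5 genes). Mitochondrially encoded genes made up 30.7% of all UMIs in MYH4-rich spots and 37.1% in MYH4-poor spots, with 35.8% where MYH1 led and 41.0% where MYH7 led.

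Differences were measured as the log2 ratio of the UMIs of a gene, each relative to all UMIs of its group with 0.5 UMI added, so that a positive value means higher in MYH4-rich spots. Of 1192 genes with at least 100 UMIs in both groups together, 54 (4.53%) were more than 1.5-fold higher in MYH4-rich spots and 58 (4.87%) more than 1.5-fold lower, and the median of all 1192 was -0.01. Since the mitochondrial share itself differed, scaling to non-mitochondrial UMIs moved every value by -0.14 and left 27 genes higher and 102 lower. Values and counts below are scaled to all UMIs unless said otherwise. The higher genes included 3 of 5 of the fast sarcomere, 7 of 11 of glycolysis and glycogen and 5 of 13 of excitation and calcium handling, and the lower genes 5 of 6 of the slow sarcomere and 5 of 12 of the mechanical stress response. The gene lists were chosen with earlier results of this section known, and their counts and medians are descriptions.

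All 5 measured genes of the fast sarcomere list had positive values, with a median of 0.72, and 3 of them passed 1.5-fold. ACTN3, the α-actinin that anchors thin filaments in fast fibers, ranged over MYH4-rich spots from 0 to 89.2 UMIs per 10000 with a median of 41.2, and over MYH4-poor spots from 0 to 73.0 with a median of 19.7. The groups overlapped widely, but 184 of 200 MYH4-rich spots lay above the median MYH4-poor spot. Its log2 ratio was 1.02 (interval 0.94 to 1.10), and was 0.73 against spots led by MYH1 and 2.59 against spots led by MYH7.

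MYL1, the fast essential light chain of myosin, had a median of 242 UMIs per 10000 in MYH4-rich spots (44.0 to 405) and of 126 in MYH4-poor spots (14.6 to 345). Most MYH4-rich spots, 186 of 200, were above the MYH4-poor median, and the log2 ratio was 0.85 (0.82 to 0.88). TPM1, a tropomyosin, was higher by 0.72 on the log2 scale (0.68 to 0.75), but by 0.57 and so under 1.5-fold with non-mitochondrial scaling. MYOZ1, the Z-disc protein myozenin of fast fibers, reached 0.58 (0.51 to 0.64) and so stayed just under 1.5-fold, and MYLK2, the kinase of the fast regulatory light chain, had 0.21 (0.04 to 0.37).

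Of 6 measured genes of the slow sarcomere list, 5 were more than 1.5-fold lower in MYH4-rich spots and the median was -1.08. With spots ranked by MYH4 among MYH1 and MYH4 alone, the median was -0.79. MYL2, the slow regulatory light chain, had a median of 33.4 UMIs per 10000 in MYH4-rich spots (1.37 to 171) and of 67.1 in MYH4-poor spots (6.15 to 332). Here 169 of 200 MYH4-rich spots lay below the MYH4-poor median, and the log2 ratio was -1.12 (-1.17 to -1.07). TNNC1, the slow troponin C that binds calcium on the thin filament, had medians of 18.1 and 35.2 UMIs per 10000 and a log2 ratio of -1.18 (-1.25 to -1.10). MYL3, the slow essential light chain, had -1.04 (-1.12 to -0.97), MYOZ2, the slow myozenin, -1.42 (-1.80 to -1.07) and MYBPC1, the slow myosin binding protein C, -0.64 (-0.75 to -0.53). MYBPC1 was nearest to the limit and stayed within 1.5-fold with 267 spots per group, at -0.52.

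The feature named TNNI1, the symbol of slow troponin I, was the exception in its list. Whether the annotation gives this symbol to the right gene was not tested. TNNI1 had a median of 104 UMIs per 10000 in MYH4-rich spots (16.8 to 167) and of 73.7 in MYH4-poor spots (0 to 139), and its log2 ratio of 0.49 (0.45 to 0.53) was on the side of the fast genes. The same held in each other section when spots rich in MYH1 were compared with spots rich in MYH7, where TNNI1 was higher by 0.20 at 16 weeks, by 0.90 in stored healthy muscle and by 0.21 in fresh healthy muscle. TNNC1, its partner in the slow troponin complex, was lower in MYH1-rich spots in all of these sections, with -1.47, -2.07 and -2.60.

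**Figure D2:**
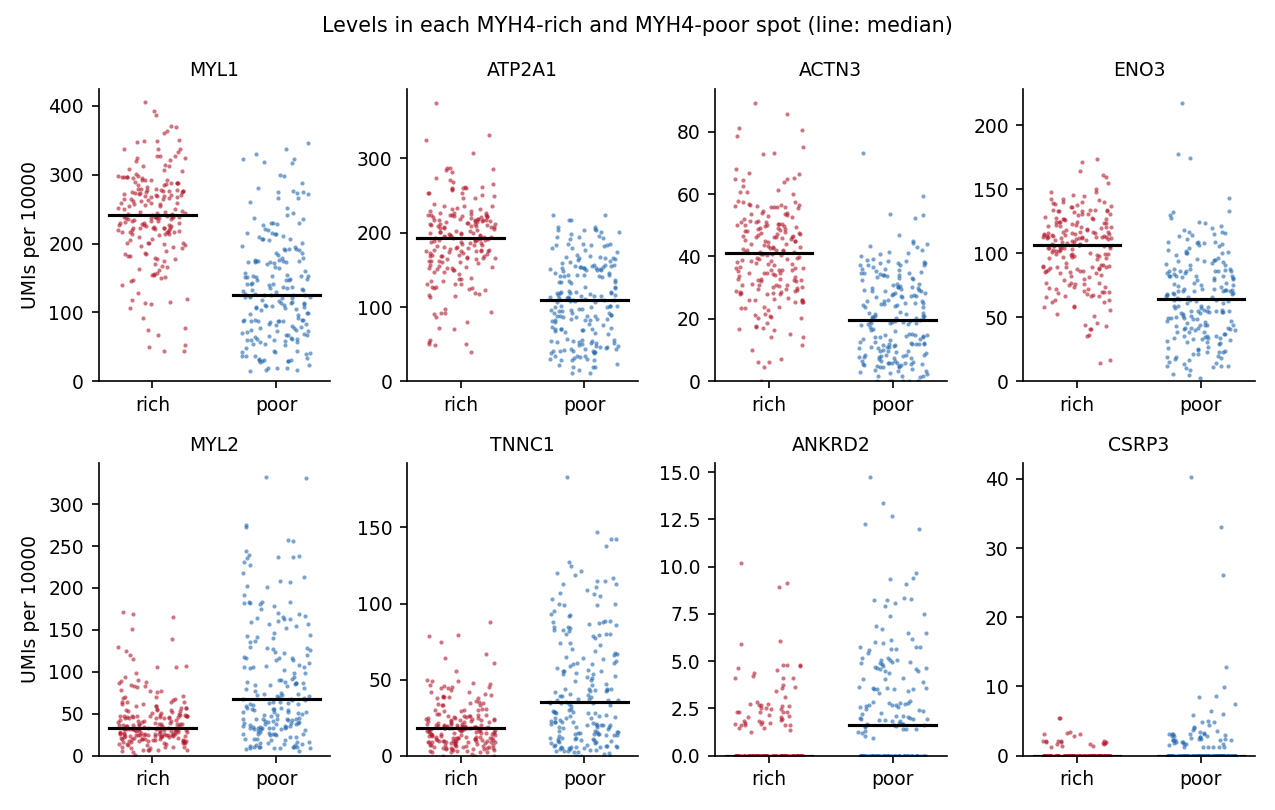
Each point is a spot and gives the UMIs of a gene per 10000 UMIs of that spot, for 200 MYH4-rich (red) and 200 MYH4-poor (blue) spots, with a line at the median. MYL1, ATP2A1, ACTN3 and ENO3 are shifted up in MYH4-rich spots, and MYL2 and TNNC1 are shifted down. CSRP3, with a median of 0 in both groups, differs in part through a few high MYH4-poor spots.

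Genes of excitation and calcium handling split by their fiber form. Of 13 measured members 5 were more than 1.5-fold higher and 2 lower, with a median of 0.36. The fast calcium pump ATP2A1 (SERCA1), which returns calcium to the sarcoplasmic reticulum, had medians of 193 and 109 UMIs per 10000 and a log2 ratio of 0.86 (0.83 to 0.89), with 185 of 200 MYH4-rich spots above the MYH4-poor median. The slow and cardiac pump ATP2A2 (SERCA2) had medians of 9.22 and 19.1 and a ratio of -1.08 (-1.18 to -0.98). The calcium stores of the reticulum showed the same split. CASQ1, the fast calsequestrin, was at 0.82 (0.74 to 0.90), and CASQ2, the cardiac and slow form, at -0.83 (-1.29 to -0.41).

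The machinery that couples the membrane signal to calcium release was higher in part. JPH1, which holds the T-tubule next to the reticulum, had 0.67 (0.47 to 0.87), and CACNA1S, the voltage sensor, 0.65 (0.49 to 0.80). RYR1, the release channel, was at 0.36 (0.28 to 0.45) and did not reach 1.5-fold, nor did TRDN, which links it to calsequestrin, at 0.28. With scaling to non-mitochondrial UMIs, JPH1 (0.53) and CACNA1S (0.50) fell under 1.5-fold and the list had 2 higher genes in place of 5. JPH1 was at 0.23 among the spots of positions shared with the healthy sections.

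Of 11 measured glycolysis and glycogen genes, 7 were more than 1.5-fold higher, none was lower, and the median was 0.66. With scaling to non-mitochondrial UMIs only 3 of the 11 remained past 1.5-fold and the median was 0.52, and PGAM2 (0.57), ENO3 (0.55), PGM1 (0.52) and ALDOA (0.48) fell under it. Among genes of glycogen use, PPP1R3A, which directs a phosphatase to glycogen, was at 0.88 (0.58 to 1.19). PGM1, which feeds glucose from glycogen into glycolysis, had 0.66. Within glycolysis TPI1 was at 0.77, PGAM2 at 0.71, ENO3 at 0.69 and ALDOA at 0.62. ENO3, the muscle enolase, had a median of 107 UMIs per 10000 in MYH4-rich and 64.6 in MYH4-poor spots, and 181 of 200 MYH4-rich spots exceeded the latter. PPP1R3C, another glycogen targeting subunit, was at -0.14 (-0.30 to 0.03). AMPD1, the AMP deaminase of muscle, was also higher, at 0.78 (0.47 to 1.10).

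With scaling to all UMIs, oxidative genes differed less. All 7 measured genes of fatty acid and ketone oxidation were below 0, with a median of -0.46, but none passed 1.5-fold. The lowest were ACAA2, a thiolase of β-oxidation, at -0.57 (-0.81 to -0.33) and FABP3, the fatty acid binding protein of heart and slow muscle, at -0.56 (-0.71 to -0.40). With scaling to non-mitochondrial UMIs, which moved each value by -0.14, both genes and the median of this list were past 1.5-fold. No nuclear gene of the citric acid cycle (6 measured), respiratory complex I (15), complexes II and III (4), complex IV (1) or ATP synthase (5) passed 1.5-fold, and their medians lay between -0.13 and 0.04. The lowest citric acid cycle gene, at -0.56, was past 1.5-fold with non-mitochondrial scaling. Mitochondrially encoded genes had a median of -0.21 over 25 measured, 20 of them below 0, and 1 feature without a symbol passed 1.5-fold, on the lower side. LDHB, the lactate dehydrogenase subunit of oxidative tissue, was at -0.69 (-0.82 to -0.57), and CA3, a carbonic anhydrase abundant in slow fibers, at -1.03 (-1.31 to -0.75). Cytosolic ribosomal proteins (13 measured, median 0.02) and proteasome subunits (19 measured, median -0.04) had no member past 1.5-fold. With non-mitochondrial scaling the lowest proteasome subunit, at -0.53 before, was past it.

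Among genes of the mechanical stress response, 5 of 12 measured were more than 1.5-fold lower in MYH4-rich spots and none was higher, with a median of -0.31. In the comparison within spots low in MYH7, given below, 7 were measured, 0 passed 1.5-fold and the median was -0.16. CSRP3, ANKRD2, FHL1 and FHL2 had under 100 UMIs there and were not measured, so that comparison says nothing about them. CSRP3, the muscle LIM protein of the Z-disc, had the lowest log2 ratio of all 1192 genes, with 28 UMIs in MYH4-rich and 190 in MYH4-poor spots, a 5.76-fold difference (log2 ratio -2.53, -3.18 to -1.97). This came in part from few spots. CSRP3 was seen in 55 MYH4-poor spots, and the 7 with most held 104 UMIs, 54.7% of the total, whereas no MYH4-rich spot had more than 3. MYH7 led in 5 of these 7 spots, and each held between 60 and 192 UMIs of CRYAB, the small heat shock protein αB-crystallin. Without its highest spot the log2 ratio of CSRP3 was -2.30.

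ANKRD2, a stretch-responsive ankyrin repeat protein of slow fibers, was spread more evenly, with 87 UMIs in 58 MYH4-rich spots and 298 in 111 MYH4-poor spots (log2 ratio -1.56, -1.92 to -1.21). CRYAB had medians of 26.5 and 40.5 UMIs per 10000, a highest spot of 90.2 and 358, and a ratio of -0.83 (-0.90 to -0.76). FHL1 and FHL2, both LIM domain proteins of the sarcomere, were at -0.75 and -0.69. ANKRD1, a close relative of ANKRD2, was at 0.17 (0.01 to 0.32), and XIRP2, an actin-binding protein of the Z-disc region, at 0.38, so the list did not move as a whole. In the heat shock list CRYAB was the only member of 10 past 1.5-fold. In the list of shared sarcomere and Z-disc genes 2 of 17 passed it, both lower: LMOD2, a leiomodin of the thin filament, at -1.36 and FLNC, a filamin of the Z-disc, at -0.67. Between MYH1-rich and MYH7-rich spots of this section LMOD2 was at -1.59 and FLNC at -0.35. In the same cut ANKRD2 was at -2.79 and CSRP3 at -2.34. ANKRD2 was also lower in MYH1-rich spots at 16 weeks (-1.51) and in stored (-2.03) and fresh (-1.78) healthy muscle. So was CSRP3, at -1.66, -2.30 and -1.2. CRYAB, FHL1 and FHL2 were below 0 in every section, with CRYAB at -0.08 in fresh healthy muscle. Whether ANKRD2 and CSRP3 differ along MYH4 apart from MYH7 was not tested.

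Outside the lists, RXRG, a retinoid X receptor, had the highest log2 ratio of the measured genes with a symbol, at 1.21 (0.78 to 1.66) from 134 and 67 UMIs. LMAN2, a cargo receptor of the secretory pathway, followed at 1.02, DHRS7C, a dehydrogenase of the sarcoplasmic reticulum, at 1.0, BPGM, a bisphosphoglycerate mutase, at 0.99, FAHD2A at 0.93 and USP47, a deubiquitinase, at 0.83. LMAN2 was well covered, with medians of 13.6 and 5.44 UMIs per 10000 and 175 of 200 MYH4-rich spots above the MYH4-poor median, while BPGM, FAHD2A and USP47 had no more than 79 UMIs in either group. On the other side stood DHRS7 at -1.2, C1orf43 at -1.10, CCDC43 at -1.07 and TWF2, a twinfilin that binds actin monomers, at -1.06. Of regulators linked to fiber type, 3 were measured and none passed 1.5-fold. VGLL2, a cofactor of TEAD factors, was lowest at -0.56 (-0.89 to -0.23), and was past 1.5-fold with non-mitochondrial scaling.

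The section also held cells other than muscle fibers, and their markers were examined in both groups. Of 15 measured connective tissue genes, 14 stayed within 1.5-fold and the median was -0.18. The whole list of 28 genes with a feature summed to between 32.2 and 1753 UMIs per 10000 in MYH4-rich spots (median 139) and between 12.7 and 2060 in MYH4-poor spots (median 103). FMOD and SFRP4 were at 0 in both groups and PDGFRB in the MYH4-rich group. S100A4, found in fibroblasts and leukocytes, was lower in MYH4-rich spots, at -0.86.

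Of 6 measured macrophage and leukocyte genes 3 were lower: CHI3L1, a chitinase-like protein, at -1.30, LGALS3, a galectin, at -0.82 and CD74, the invariant chain of antigen presentation, at -0.61. The 23 genes of that list summed to between 0 and 99.2 UMIs per 10000 in MYH4-rich spots (median 4.92) and between 0 and 144 in MYH4-poor spots (median 4.76), with MMP12 at 0 in MYH4-rich and CD163 at 0 in MYH4-poor spots. Single spots weighed on these values. The MYH4-poor spot with most LGALS3 was also the one with most CD74 and S100A4, and without the highest spot of each gene the ratios were -0.62 for LGALS3, -0.38 for CD74 and -0.97 for CHI3L1. CHI3L1 was at -0.40 with 267 spots per group, and LGALS3 at -0.32 without the tenth of spots richest in connective tissue genes, both within 1.5-fold. Endothelial genes (3 measured, median -0.26) and smooth muscle and pericyte genes (3 measured, median 0.43) had none past 1.5-fold. With non-mitochondrial scaling the lowest endothelial gene, at -0.56 before, was past it. No adipocyte, blood or Schwann cell gene reached 100 UMIs, and the adipocyte markers ADIPOQ and LEP, the neurofilament gene NEFL and the red cell gene SLC4A1 were at 0 in both groups. The part of these cells in the fiber gene differences was not tested beyond leaving out the tenth of spots richest in connective tissue genes, after which 54 genes were higher and 55 lower. These were not all the same genes. Of the 54 higher and 58 lower genes before, 46 and 50 were still past 1.5-fold.

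Markers of developing or regenerating fibers had no common direction, and rested on few spots. MYH8, the neonatal myosin heavy chain, had 161 UMIs in 42 MYH4-rich spots and 211 in 28 MYH4-poor spots (log2 ratio -0.17, -0.48 to 0.13). A single MYH4-poor spot held 59 of these UMIs, and without it the ratio was 0.29. Against the MYH4-poor spots led by MYH7 the ratio of MYH8 was 4.19, and within spots low in MYH7 it was -1.50, so its direction depended on the comparison. MYL4, the embryonic light chain, had 62 UMIs in 13 MYH4-rich spots and 11 in 7 MYH4-poor spots, of which 28 came from 1 MYH4-rich spot. It remained under 100 UMIs in all. NES, the intermediate filament nestin, was at -0.71, and at -0.34 without its highest spot.

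The 801 spots were also ordered by MYH4 share and cut into 4 bins of 200 or 201 spots, of which the MYH4-poor spots are the first and the MYH4-rich spots the last. The steps between bins were not even. Of the 54 higher genes, 32 rose over each of the 3 steps from the lowest to the highest bin, against 8.31% of all 1192 genes, and 23 of the 58 lower genes fell over each step, against 7.72%. The ends of this range chose the genes, so only the step between the middle bins is free of that choice. There 35 of 54 higher genes rose from the second to the third bin and 32 of 58 lower genes fell, where 50.3% of all genes rose. The step from the lowest bin to the next was the largest of the 3 on the log2 scale for 39 of the 54 higher and 43 of the 58 lower genes. ACTN3 went from 19.97 to 30.6, 33.7 and 40.5 UMIs per 10000, and MYL2 from 97.4 to 57.8, 57.6 and 44.7.

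**Figure D3:**
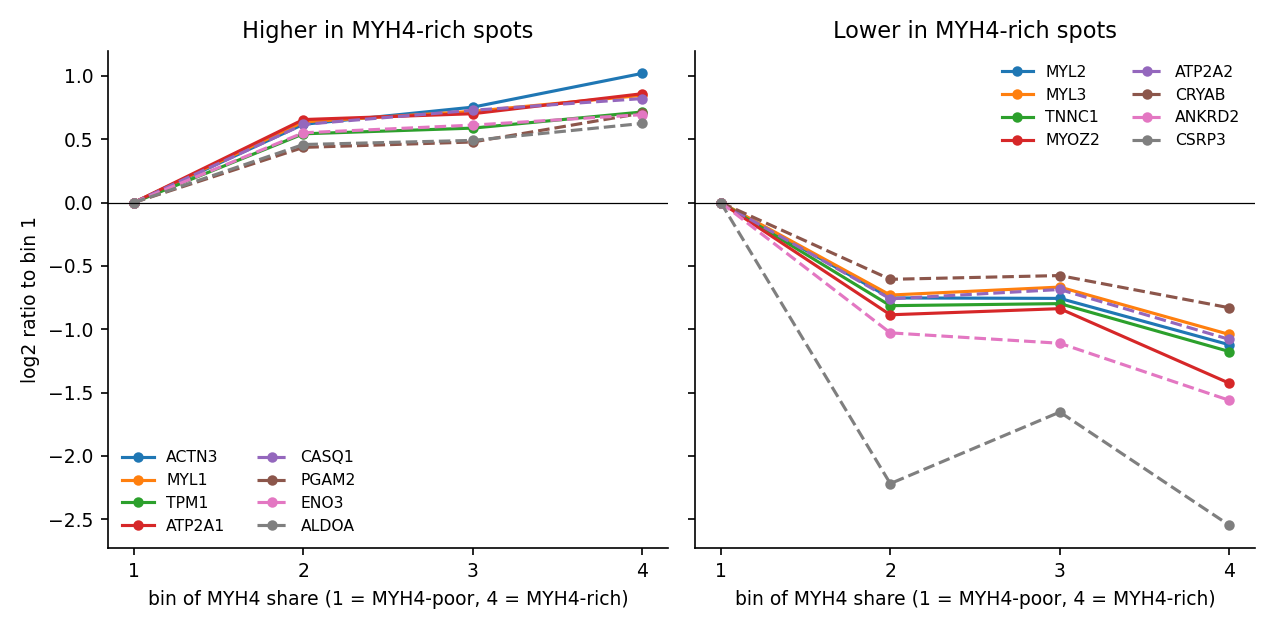
Log2 ratio of the UMIs per 10000 in each of 4 bins of MYH4 share to that in bin 1, the MYH4-poor spots (y axis), by bin (x axis), for 8 genes higher and 8 genes lower in MYH4-rich spots. The largest step is from bin 1 to bin 2 in all lines, the middle bins are close to each other, and CSRP3 falls most.

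Against the 155 MYH4-poor spots led by MYH1, fewer genes differed. Of 1076 genes with enough UMIs, 24 (2.23%) were more than 1.5-fold higher in MYH4-rich spots and 36 (3.35%) lower. Against the 43 spots led by MYH7, 126 (15.8%) of 799 were higher and 77 (9.64%) lower. All 54 higher genes had positive values in both, and 24 of them passed 1.5-fold against the spots led by MYH1. Of the 58 lower genes 29 passed it there, and 1 changed sign against the spots led by MYH7. Both sets are parts of the MYH4-poor group that chose these genes, so kept signs are no independent support. The median of the fast sarcomere list was 0.50 against MYH1-led and 1.71 against MYH7-led spots, and that of the slow list -0.52 and -2.10. The connective tissue list changed side, from -0.41 to 0.71. Of the named genes past 1.5-fold before, 49 were measured against the spots led by MYH1. All kept their sign and 26 were still past 1.5-fold. Those now within it included MYL1 (0.57), TPM1 (0.50), ENO3 (0.45) and ALDOA (0.41). On the lower side they included ATP2A2 (-0.51), MYL2 (-0.55), TNNC1 (-0.55) and MYL3 (-0.46). CRYAB (-0.56), FHL1 (-0.49), LDHB (-0.42) and CA3 (-0.30) were within it too.

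To set MYH4 apart from MYH7, the comparison was repeated in the 401 spots at or below the median share of MYH7 (8.88%), from which the 25% with the highest and the 25% with the lowest MYH4 share were taken anew. This comparison was added after the other values were seen. The 100 MYH4-rich and 100 MYH4-poor spots so chosen were alike in MYH1 (556 and 552 UMIs per 10000) and differed in MYH4 (137 and 10.7). MYH7 was no longer lower but somewhat higher in the MYH4-rich spots (35.1 and 28.9, log2 ratio 0.28, 0.18 to 0.38). All 100 of the former were among the 200 MYH4-rich spots, and 57 of the latter among the 200 MYH4-poor spots. Mitochondrial genes gave 29.2% and 33.4% of UMIs.

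In this comparison 12 (1.73%) of 694 genes were more than 1.5-fold higher in MYH4-rich spots and 13 (1.87%) lower. The slow sarcomere list was no longer lower as a whole, with a median of 0.30 over 5 genes. TNNI1 was among these, and MYOZ2, the lowest before, was no longer measured, so this median covers another set of genes. TNNC1 was at 0.35 (0.20 to 0.51) and MYL3 at 0.30 (0.14 to 0.45), both opposite in sign to the comparison of all spots and of about the size of the MYH7 ratio here, and MYL2 at -0.08 (-0.18 to 0.02). ATP2A2 had likewise changed sign, to 0.18 (-0.02 to 0.38), as had C1orf43, to 0.35 (0.09 to 0.62). MYBPC1 stayed on the lower side, at -0.38 (-0.55 to -0.22). The fast genes kept positive values that were smaller. ACTN3 was at 0.50 (0.41 to 0.59), ATP2A1 at 0.36, MYL1 at 0.15 and TPM1 at 0.18. Scaling to non-mitochondrial UMIs, which would lower every value in this comparison, was not run here. The glycolysis and glycogen list had a median of 0.26, with PGAM2 at 0.38 and ENO3 at 0.21. CRYAB (-0.29), CA3 (-0.16) and LDHB (-0.43) were nearer to 0 than in the comparison of all spots, and within 1.5-fold.

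RXRG differed about as much as before, at 1.04 (0.47 to 1.63) from 114 UMIs. Of the 54 higher genes 32 could be measured here, all with positive values and 6 past 1.5-fold. Of the 58 lower genes 26 could be measured, 18 with negative values and 4 past 1.5-fold. Many of these spots had also chosen the genes, so kept signs are no independent support. Chosen after their values were seen, MRLN, the micropeptide myoregulin that inhibits the calcium pump, was at 0.69 (0.32 to 1.07) and RRAGD, a Rag GTPase of nutrient sensing, at 0.64 (0.16 to 1.14). On the lower side SMTNL1, a smoothelin-like protein, was at -1.43 (-2.08 to -0.85), the laminin LAMA4 at -0.89 and the apolipoprotein APOD at -0.72. MYH8 was lower here, at -1.50 (-1.87 to -1.15), from 86 and 283 UMIs, of which 46 and 59 came from a single spot on each side.

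**Figure D4:**
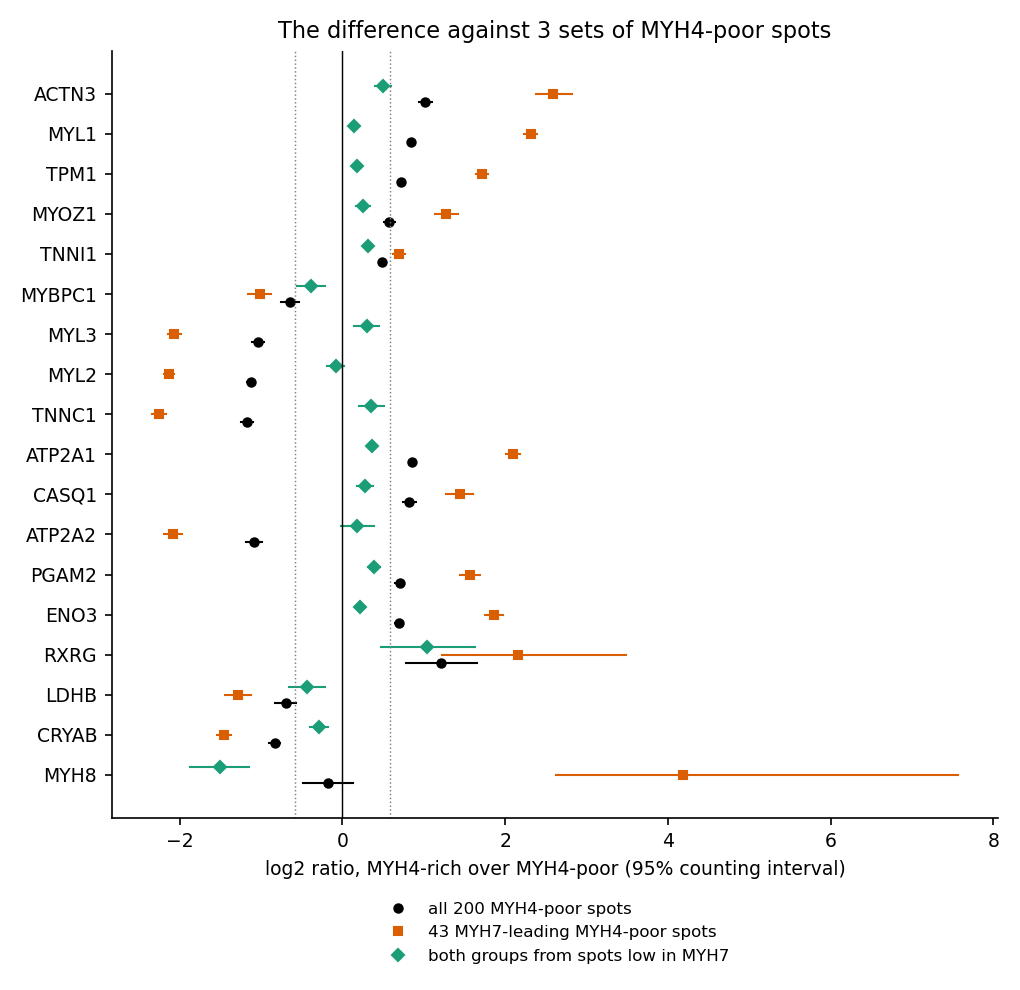
Log2 ratios of MYH4-rich over MYH4-poor spots with 95% counting intervals (x axis) for named genes, against all 200 MYH4-poor spots (black), against the 43 led by MYH7 (orange) and with both groups taken from spots low in MYH7 (green); dotted lines mark 1.5-fold. MYL3, TNNC1 and ATP2A2 move from well below 0 to above it when MYH7 is low, while RXRG stays near 1.

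The same section was also cut by MYH1 against MYH7. Of the 54 higher genes 53 were measured in this cut, and 52 were higher in MYH1-rich spots, against 59.6% of all 1179 genes. Of the 58 lower genes 57 were measured and 50 were lower there, although 59.6% of all genes were higher. Among genes named above, MYL1 (1.19), TPM1 (0.98), ACTN3 (1.15) and ATP2A1 (0.96) were farther from 0 than along MYH4. Genes of glycolysis and glycogen went both ways. ENO3 (0.88) and ALDOA (0.75) were farther from 0, and TPI1 (0.74), PGAM2 (0.65), PPP1R3A (0.61) and PGM1 (0.57) were nearer. MYL2 had a log2 ratio of -2.57 between the 200 spots with most and the 200 with least MYH1 relative to MYH7, TNNC1 -2.59, MYL3 -2.67 and ATP2A2 -2.60, all farther from 0 than along MYH4. RXRG had 0.65 (0.20 to 1.11), nearer to 0 than along MYH4. The cuts by MYH4 and by MYH1 against MYH7 share spots and no test of the difference was made. RXRG was also compared between MYH1-rich and MYH7-rich spots of the other sections, from few UMIs. It had 0.91 (0.14 to 1.73) at 16 weeks, 1.86 (1.17 to 2.65) in stored and 0.39 (-0.28 to 1.07) in fresh healthy muscle. In the other sections MYH4 was at 0.0885 UMIs per 10000 at 16 weeks, 0.233 in stored and 0.265 in fresh healthy muscle, against 39.9 at 2 weeks. No MYH4 UMI was found in 1346 of 1374 spots used at 16 weeks, 2171 of 2346 in stored and 1580 of 1684 in fresh healthy muscle. The same groups could therefore not be formed there. Whether the level at 2 weeks goes with tenotomy, with the animal or with the place of the section cannot be told apart.

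MYH4-rich and MYH4-poor spots were not spread alike over the section. Single spots could not be placed, but groups of them could, since 826 of the 854 barcodes were also under tissue in another section and the barcodes of each combination of sections matched its number of slide positions. In the group common to all sections, around array column 50.6, 143 of 480 spots (29.8%, 25.7 to 34.1%) were MYH4-rich and 88 (18.3%, 15.0 to 22.1%) MYH4-poor. These intervals treat spots as independent draws, which neighboring spots of 1 muscle are not. In the group shared with the healthy sections, around column 70.8, 21 of 116 (18.1%) were MYH4-rich and 42 (36.2%) MYH4-poor, and in the group shared with fresh muscle alone, around column 91.9, 24 of 98 (24.5%) and 37 (37.8%). Within these groups the median of the fast sarcomere list was 0.67, 0.77 and 1.16 and that of the slow list -0.98, -1.03 and -1.44, so both kept their side inside each.

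Some features carried an identifier and no symbol. These were chosen after their values were seen. ENSOCUG00000025374 had 120 UMIs in MYH4-rich spots and 0 in MYH4-poor spots, at least 46.4-fold higher when 3 counts are allowed over the MYH4-poor group. Of these UMIs 94 lay in 1 spot, and the same spot held 332 of the 400 MYH4-rich UMIs of ENSOCUG00000027394, which had 40 in MYH4-poor spots. Without that spot the log2 ratio of ENSOCUG00000027394 fell from 3.52 to 0.98. Among lower features, ENSOCUG00000029235 had 55 and 194 UMIs (log2 ratio -1.59), with 37 in a single MYH4-poor spot, and ENSOCUG00000009058 had 104 and 291 (-1.27), with 95 in the MYH4-poor spot that also held most CHI3L1.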

How the data were processed

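The deposited values are raw UMI counts, which the authors obtained with Space Ranger 1.2.0 (build OryCun2.0, Ensembl genes) for every spot that their manual image alignment placed under tissue. The table lists 21139 genes, 11336 of them with a symbol, and 37 mitochondrial genes were recognized from neighboring identifiers. The 801 spots used held 4054375 UMIs, 939019 of them in MYH4-rich and 1089673 in MYH4-poor spots.

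The members and the gene lists were chosen with earlier results of these data known. Summed counts were compared as log2 ratios with exact conditional 95% intervals, and shares of spots carry exact binomial (Clopper-Pearson) intervals. These cover counting error only, and the binomial intervals treat spots of 1 muscle as independent draws, which they are not. No count model was run, since there was 1 section. No doublet caller was run. Genes named were the 12 highest and 12 lowest with a symbol and at least 100 UMIs, list members past 1.5-fold, all fast and slow sarcomere genes measured, MYH8 and MYL4. Other list members are given for context, and a few genes that the rule names are not reported here. To thin a spot, 1000 UMIs were drawn without replacement. MYH4-poor spots led by 1 chain, spots low in MYH7, ratios without a gene's highest spot and the cut by MYH1 and MYH7 were added after seeing the data. The second rabbit assembly, mOryCun1.1, named none of the identifiers printed. The calculations used Python 3.11.15, numpy 2.4.6 and scipy 1.17.1, plots matplotlib 3.10.9, and the code was tested on simulated data with known changes.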

Additional observations from a re-analysis of the deposited data

How the results depend on the processing

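The number of genes past 1.5-fold (54 higher, 58 lower) depended on where spots and genes were cut. It was 35 higher with 267 spots per group, 27 and 102 lower with scaling to non-mitochondrial UMIs, and 27 and 18 (of 369 genes) with spots thinned to 1000 UMIs. With a minimum of 20, 50 or 200 UMIs per gene it was 283 and 344 (of 3106 genes), 113 and 129 (of 1913), or 32 and 34 (of 711). Ranking spots by MYH4 among all UMIs gave 96 lower. Within the second and the third position group it was 30 and 19, and 30 and 26, of 288 and 238 genes. Against MYH1-led spots it was 24 and 36, against MYH7-led spots 126 higher, and in spots low in MYH7 12 and 13. The number of genes measured differed between many of these settings, so the counts are not directly comparable.

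The fast sarcomere median of 0.72 reached 1.11 with 80 spots per group, 1.16 in the third position group and 1.71 against MYH7-led spots. The slow median of -1.08 reached -1.44 and -2.10 in the latter pair of settings. In spots low in MYH7 it was 0.30, over 5 genes in place of 6. The glycolysis and glycogen median of 0.66 reached 0.93, 0.92 and 1.57 in the same 3 settings. The mitochondrial median of -0.21 moved to -0.30 with 80 spots per group and with thinning, -0.35 with scaling to non-mitochondrial UMIs, -0.32 and -0.39 in the second and the third position group, -0.15 against MYH1-led and -0.37 against MYH7-led spots.

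Median UMIs in MYH4-rich spots were 90.3% of those in MYH4-poor spots and 103% without mitochondrial genes. Median genes were 97.2%, but 102% after thinning to 1000 and 103% after thinning to 2000 UMIs. Among named genes, ATP2A2 (0.18), C1orf43 (0.35), TNNC1 (0.35) and MYL3 (0.30) turned sign in spots low in MYH7. The cause was not tested. Over all settings 743 values of named genes stayed inside the counting interval of the first value, 280 moved out of it on the same side, 4 of genes past 1.5-fold turned, and 5 of genes not past it did (MYLK2 at -0.08 with 80 spots per group, and MYH8 in 4 settings, from 0.29 to 4.19). Values were kept where a gene had 100 UMIs and a list 3 measured members. No paired analysis was possible because there was 1 section and no replicate.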
